A study of Mus musculus with 6 samples.

Results

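The genes described here are 10 that mark resting fibroblasts and the adventitia, the outer coat of the vessel wall: Pdgfra, Tcf21, Dpt, Pi16, Cd34, Ly6a, Gsn, Vim, Dpep1 and Clec3b. They were chosen by name, as rows of the deposited count table, and are 10 of its 23420 gene symbols. All 10 were in the table, and all 10 passed the filter on low counts that left 15096 genes for testing. The RNA came from aortic roots, the part of the aorta that carries the valve and borders on heart muscle, of C57Bl6/J mice aged 12 months. In both groups the mice had eaten standard chow up to 4 months of age and then, for 8 months, a diet high in cholesterol (TestDiet 5TJT). The groups were 3 libraries labelled Sost+/+ and 3 labelled Sost-/-, from mice with both copies of Sost intact or knocked out; how the allele was made, and which exons it lacks, is not given in the sources used here. The labels speak of 3 roots per group without naming animals, so the tests rest on the variation among these 6 roots, and replicate numbers only name libraries.

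Fibroblasts make and repair the connective tissue matrix. Those at rest carry the PDGF receptor alpha and express little contractile protein, and an adventitial subset that is Pi16, Cd34 and Ly6a positive lies around vessels and is regarded as a progenitor pool for other fibroblasts. Several of these genes are not limited to fibroblasts: Cd34 and Ly6a are also made by endothelium, and Vim and Gsn by most mesenchymal cells, smooth muscle and macrophages. Sclerostin, the product of Sost, is a secreted antagonist of Wnt signalling.

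Total counts ran from 37023586 to 48172863 per library. Sost itself was not lower in the libraries labelled Sost-/-: its counts were 354, 621 and 274 in the Sost+/+ and 2284, 1063 and 513 in the Sost-/- libraries. The counts of the target gene thus do not bear out the labels. The groups overlapped, with Sost+/+ replicate 2 above Sost-/- replicate 3, and counts over a whole gene do not show which of its exons were read. Each direction given below compares libraries by these labels, Sost-/- relative to Sost+/+. Smooth muscle and cardiomyocyte markers also separated the groups. The summed level of 12 smooth muscle markers was 1419 to 2796 CPM (the usual counts-per-million unit, with TMM scaling) in the Sost+/+ and 4210 to 6407 CPM in the Sost-/- libraries, and that of 15 cardiomyocyte markers had means of 97263 ± 4199 and 70326 ± 7412 CPM (SD, n = 3). No marker with a row in the table was at a count of 0 in any library. In bulk RNA, fewer cells of a type and less RNA per cell cannot be told apart.

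Of the 10 genes, 1 rose in the Sost-/- libraries, Vim, and 0 fell, at an adjusted p under 0.05 by edgeR's quasi-likelihood test with Benjamini-Hochberg adjustment over all 15096 genes. By limma-voom 1 of the 10 passed, and by DESeq2 3, where DESeq2 called 7.64% of all genes. At an unadjusted p under 0.05 edgeR gave 3 higher and 1 lower, where 20.2% of all genes stood under that value (11.6% higher and 8.62% lower). Across all genes 385 passed, which is 2.55% (2.18% higher and 0.371% lower). The median log2 fold change of the 10 was 0.21, with a range from -0.32 (Ly6a) to 0.60 (Vim), beside a median of 0.0066 over all genes tested. The 3 libraries of a group did not overlap those of the other for Vim and Pdgfra, which were higher, and for Ly6a, which was lower. That is 3 of 10 genes, where 25.4% of all genes tested did not overlap (14.3% higher and 11.1% lower). The remaining genes, Tcf21, Dpt, Pi16, Cd34, Gsn, Dpep1 and Clec3b, overlapped between the groups.

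**Figure D1:**
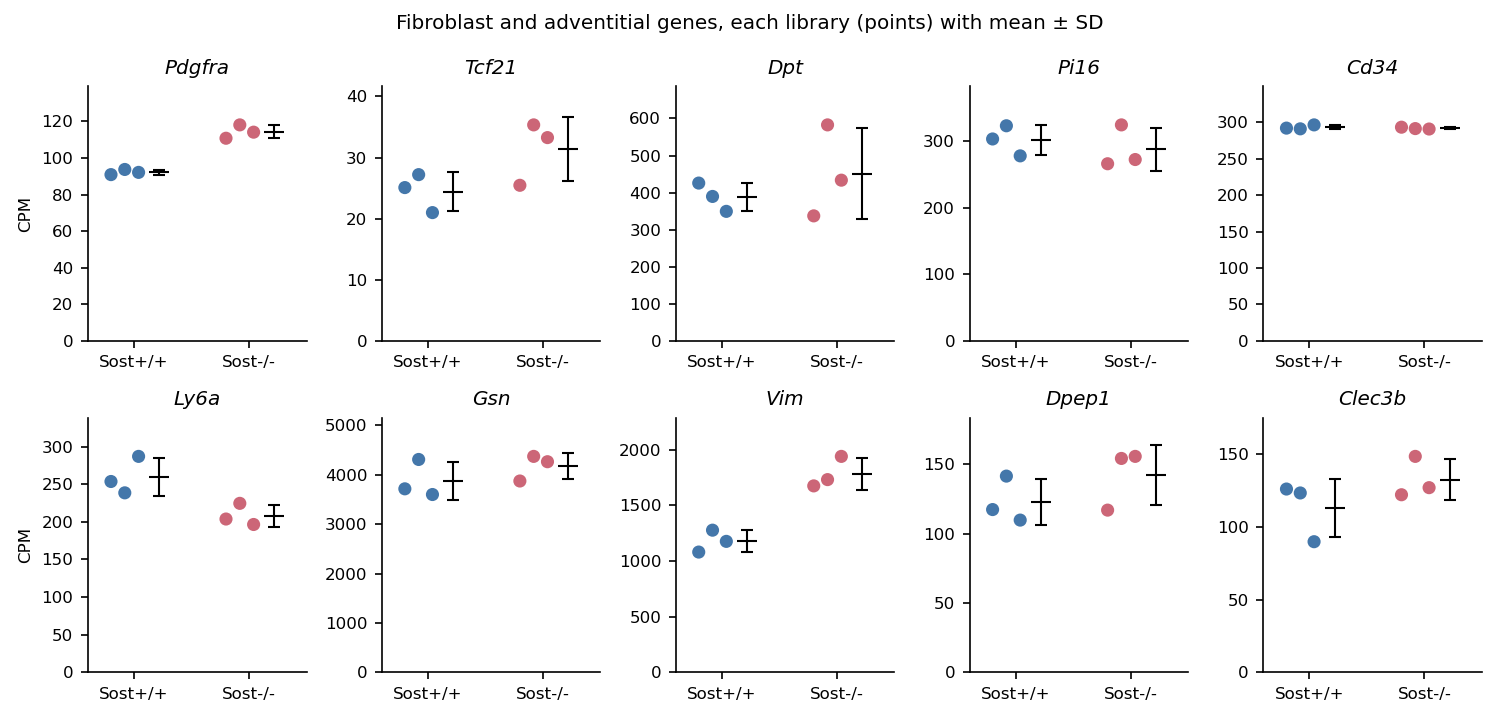
Level of each of the 10 genes in CPM (vertical axes, starting at 0) in the 3 Sost+/+ (blue) and 3 Sost-/- (red) libraries, with the group mean ± SD in black. Vim and Pdgfra are higher in every Sost-/- library, Ly6a is lower in every one, and the 6 points of Cd34 lie between 291 and 297 CPM.

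Pdgfra encodes the PDGF receptor alpha, the receptor tyrosine kinase used to mark fibroblasts as a class. The gene lies at chr5:75152292-75198215 (plus strand; ENSMUSG00000029231.15, GENCODE M21, build GRCm38, the assembly of mm10). Its level was 90.9, 93.7 and 92.1 CPM in Sost+/+ replicates 1 to 3 and 111, 118 and 114 CPM in Sost-/- replicates 1 to 3. The groups were separated by a gap far wider than the spread inside either, with means of 92.3 ± 1.41 and 114 ± 3.65 CPM (SD, n = 3). The log2 fold change was 0.31 (SE 0.08, 95% interval 0.13 to 0.48), a 1.239-fold difference that did not pass (edgeR adjusted p = 0.0774, permutation p = 0.1, exact and two-sided, which no comparison of 3 libraries with 3 can undercut). DESeq2 called it (adjusted p = 0.0166). It also passed in edgeR with library totals in place of TMM scaling (adjusted p = 0.0213), but that scaling moved the median of all genes to 0.13, and relative to it Pdgfra stood at 0.30.

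Tcf21, a basic helix-loop-helix factor gene that specifies cardiac fibroblasts and epicardial derivatives, lies at chr10:22817281-22820174 (minus strand; ENSMUSG00000045680.8). It was at 25.1, 27.2 and 21.0 CPM in the Sost+/+ and 25.5, 35.3 and 33.3 CPM in the Sost-/- libraries. Sost-/- replicates 2 and 3 stood above every Sost+/+ library, while Sost-/- replicate 1 lay among them. The log2 fold change was 0.36 (SE 0.14, 95% interval 0.04 to 0.68), which did not pass (edgeR adjusted p = 0.202).

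Dpt encodes dermatopontin, a small matrix protein that binds decorin and collagen fibrils and is shared by fibroblasts of many organs. The gene lies at chr1:164796644-164824266 (plus strand; ENSMUSG00000026574.5). Its level was 426, 389.7 and 349 CPM in the Sost+/+ and 337, 583 and 434 CPM in the Sost-/- libraries. Sost-/- replicate 1 was the lowest and Sost-/- replicate 2 the highest of all 6 libraries, and the Sost-/- coefficient of variation (CV) of 27.4% was the largest of any of the 10 genes in either group. The log2 fold change of 0.22 (SE 0.18, edgeR adjusted p = 0.539) was within that spread, and without Sost-/- replicate 2 it was -0.01.

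Pi16 and Clec3b stand for the adventitial and progenitor-like fibroblasts. Pi16 encodes a secreted peptidase inhibitor family protein and lies at chr17:29317680-29330593 (plus strand; ENSMUSG00000024011.17). It was at 304, 324 and 278 CPM in the Sost+/+ and 266.5, 325 and 273 CPM in the Sost-/- libraries. The groups overlapped almost fully, with a log2 fold change of -0.07 (SE 0.11, 95% interval -0.32 to 0.18, edgeR adjusted p = 0.772). Clec3b encodes tetranectin, a plasminogen-binding C-type lectin, at chr9:123150946-123157432 (plus strand; ENSMUSG00000025784.5). It was at 126, 123 and 89.8 CPM in the Sost+/+ and 122, 148 and 127 CPM in the Sost-/- libraries. Sost+/+ replicate 3 was low and Sost-/- replicate 2 high, and the other 4 libraries lay close together. The log2 fold change was 0.23 (SE 0.14, 95% interval -0.09 to 0.54, edgeR adjusted p = 0.391).

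Dpep1, which encodes a membrane dipeptidase held by a GPI anchor, lies at chr8:123186242-123201812 (plus strand; ENSMUSG00000019278.5). Its level was 117, 141 and 109.8 CPM in the Sost+/+ and 117, 154 and 156 CPM in the Sost-/- libraries. As with Tcf21, Sost-/- replicates 2 and 3 were above every Sost+/+ library and Sost-/- replicate 1 was not. The log2 fold change of 0.21 (SE 0.14, 95% interval -0.10 to 0.52) did not pass (edgeR adjusted p = 0.421).

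Cd34, a sialomucin gene of adventitial progenitors, capillary endothelium and blood stem cells, showed the smallest difference. It lies at chr1:194938819-194961279 (plus strand; ENSMUSG00000016494.9). Its level was 292, 291 and 297 CPM in the Sost+/+ and 293, 292 and 291 CPM in the Sost-/- libraries. The group means were 293 ± 2.89 and 292 ± 1.31 CPM (SD, n = 3), and the log2 fold change was -0.0067 (SE 0.08, 95% interval -0.20 to 0.18, edgeR adjusted p = 0.974). The interval leaves room for a fold between 0.873 and 1.14. The CV between libraries was 0.984% in the Sost+/+ and 0.448% in the Sost-/- group, beside 0.922% and 0.906% that counting error alone would give. The median CV over all genes tested was 10.95% and 9.44%, and 1 of the 15096 genes had a smaller value than Cd34 for the larger of its 2 group CVs.

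Ly6a, the gene of the progenitor surface antigen Sca-1, lies at chr15:74994877-74998031 (minus strand; ENSMUSG00000075602.10). It belongs to the Ly6 cluster of small GPI-anchored proteins, and its neighbour Ly6c1 is so alike that short reads can fall on either gene. Of the distinct 50-base stretches in the Ly6a transcripts, 246 of 1297 (19.0%) also occur in transcripts of other genes, against 0 to 4.93% for the other 9 genes of the set. The coding sequences of the lowest-numbered transcripts of Ly6a and Ly6c1 in GENCODE M21 are identical at 332 of 405 aligned positions (82.0%), with a longest identical run of 48 bases. Their last 120 coding bases are shown because they hold that run; capitals mark the 8 positions that differ. The Ly6a stretch is chr15:74995262-74995381 and the Ly6c1 stretch chr15:75045402-75045521, both on the minus strand of GRCm38, in the last coding exon, written 5′ to 3′.
Ly6a: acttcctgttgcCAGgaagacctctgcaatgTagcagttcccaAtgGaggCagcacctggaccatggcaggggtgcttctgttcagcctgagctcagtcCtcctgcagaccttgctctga
Ly6c1: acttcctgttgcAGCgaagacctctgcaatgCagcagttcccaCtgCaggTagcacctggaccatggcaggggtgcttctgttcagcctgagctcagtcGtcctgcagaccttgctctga

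Ly6a was at 254, 239 and 287 CPM in the Sost+/+ and 204, 225 and 197 CPM in the Sost-/- libraries. Every Sost-/- library was below every Sost+/+ library, with means of 259.7 ± 24.8 and 208 ± 14.6 CPM (SD, n = 3). The log2 fold change was -0.32 (SE 0.10, 95% interval -0.55 to -0.08), a level 0.802 times that of Sost+/+, which did not pass (edgeR adjusted p = 0.141, permutation p = 0.1, exact and two-sided, again the lowest attainable). DESeq2 called it (adjusted p = 0.0402). Ly6c1, an endothelial and fibroblast gene, was at 151, 164 and 142 CPM in the Sost+/+ and 116, 119.9 and 123 CPM in the Sost-/- libraries (log2 fold change -0.34, SE 0.09, edgeR adjusted p = 0.0827). It too was lower in every Sost-/- library. How far reads of the 2 genes were exchanged in counting was not tested. Of 13 tested members of the Ly6 family and other GPI-anchored genes, 0 rose and 0 fell by edgeR (median log2 fold change 0.01). At an unadjusted p under 0.05 edgeR gave 1, Ly6c1, while DESeq2 called 1 and limma-voom 0. Markers of blood endothelium, which also makes Ly6a and Cd34, summed to 1549 to 1706 CPM in the Sost+/+ and 1274 to 1745 CPM in the Sost-/- libraries. Of these 14 markers 0 rose and 0 fell by edgeR (3 at an unadjusted p under 0.05, 1 by DESeq2, 0 by limma-voom), 13 had a negative log2 fold change, and the median was -0.13. Their part in the values of Ly6a was not tested.

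Gsn and Vim are the abundant and broadly expressed genes of the set. Gsn encodes gelsolin, which severs and caps actin filaments and has a secreted plasma form, and lies at chr2:35256380-35307892 (plus strand; ENSMUSG00000026879.14). It was at 3713, 4307 and 3598 CPM in the Sost+/+ and 3871, 4369 and 4261 CPM in the Sost-/- libraries. The groups overlapped, with a log2 fold change of 0.11 (SE 0.13, 95% interval -0.18 to 0.39, edgeR adjusted p = 0.677). Counts per gene do not separate its isoforms. Of 13 other genes of the gelsolin family and of actin severing, 1 rose and 0 fell by edgeR (median log2 fold change -0.05). At an unadjusted p under 0.05 edgeR gave 3 higher and 1 lower, and DESeq2 called 2 higher and 1 lower. The count past the adjusted threshold in edgeR was 0 without Sost+/+ replicate 1, Sost+/+ replicate 3 or Sost-/- replicate 3. The member that rose was Dstn, the gene of the actin-depolymerizing protein destrin (log2 fold change 0.70, SE 0.12, edgeR adjusted p = 0.0238).

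Vim, the gene of the intermediate filament protein vimentin, lies at chr2:13573927-13582826 (plus strand; ENSMUSG00000026728.9). It rose from 1081, 1278 and 1177 CPM in the Sost+/+ to 1675.5, 1732 and 1940.5 CPM in the Sost-/- libraries. Every Sost-/- library was above every Sost+/+ library, and the lowest of the former exceeded the highest of the latter by more than the range within either group. The means were 1179 ± 98.3 and 1783 ± 139.6 CPM (SD, n = 3), a 1.51-fold rise (95% interval 1.26 to 1.82; log2 fold change 0.60, SE 0.12, edgeR adjusted p = 0.0377, permutation p = 0.1, exact and two-sided, again the lowest attainable). By DESeq2 the adjusted p was 5.77e-06. In edgeR the call ended when any library but Sost-/- replicate 1 was left out. The adjusted p was 0.156, 0.0714 and 0.0798 without Sost+/+ replicates 1, 2 and 3, 0.083 without Sost-/- replicate 2 and 0.174 without Sost-/- replicate 3, with log2 fold changes of 0.52 to 0.65. It also ended on the deposited normalized values tested with limma (adjusted p = 0.0552).

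**Figure D2:**
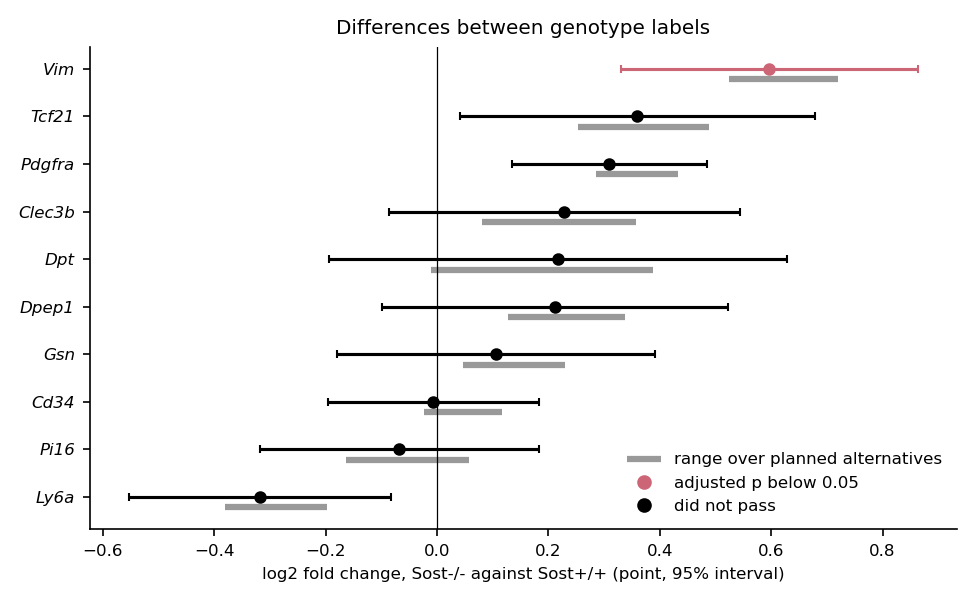
Log2 fold change of each gene in Sost-/- against Sost+/+ libraries (horizontal axis; point and 95% interval from edgeR), with the range over 14 other ways of processing as a grey bar. Vim, in red, is the member that passed, at 0.60, and Ly6a lies lowest, at -0.32; the intervals of Dpt, Pi16, Cd34, Gsn, Dpep1 and Clec3b include 0.

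Markers of smooth muscle, which also makes vimentin, were higher in the same libraries. Of the 12 smooth muscle markers, 10 rose and 0 fell by edgeR, with a median log2 fold change of 1.59. The count was 3 under a robust fit, 1 without Sost+/+ replicate 3 and 0 without Sost+/+ replicate 1 or Sost-/- replicate 3. Their sum was 1589, 2796 and 1419 CPM in Sost+/+ replicates 1 to 3 and 5259, 4210 and 6407 CPM in Sost-/- replicates 1 to 3. Within each group the highest Vim level and the highest smooth muscle sum fell on the same library, Sost+/+ replicate 2 and Sost-/- replicate 3. The lowest Vim level was in replicate 1 of each group. The lowest sums were in Sost+/+ replicate 3 and Sost-/- replicate 2. Mesothelial markers summed to 26.7, 36.4 and 51.3 CPM in the Sost+/+ and 26.9, 27.1 and 137 CPM in the Sost-/- libraries, so Sost-/- replicate 3, highest for Vim, stood out there too. Macrophage markers summed to 1296 to 1520 CPM in the Sost+/+ and 1196 to 1886 CPM in the Sost-/- libraries and overlapped. Pericyte markers, with Cspg4 the 1 of 10 that passed (log2 fold change 0.92, SE 0.17, edgeR adjusted p = 0.0279), summed to 672 to 734 and 710.3 to 929 CPM and overlapped too. The part of these cells in the rise of Vim was not tested. Of 8 other intermediate filament genes 0 rose and 0 fell by edgeR (3 at an unadjusted p under 0.05, 1 by DESeq2, 0 by limma-voom), with a median log2 fold change of -0.18. Synm, the gene of the muscle filament protein synemin, came closest (log2 fold change 0.37, SE 0.08, edgeR adjusted p = 0.0504).

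**Figure D3:**
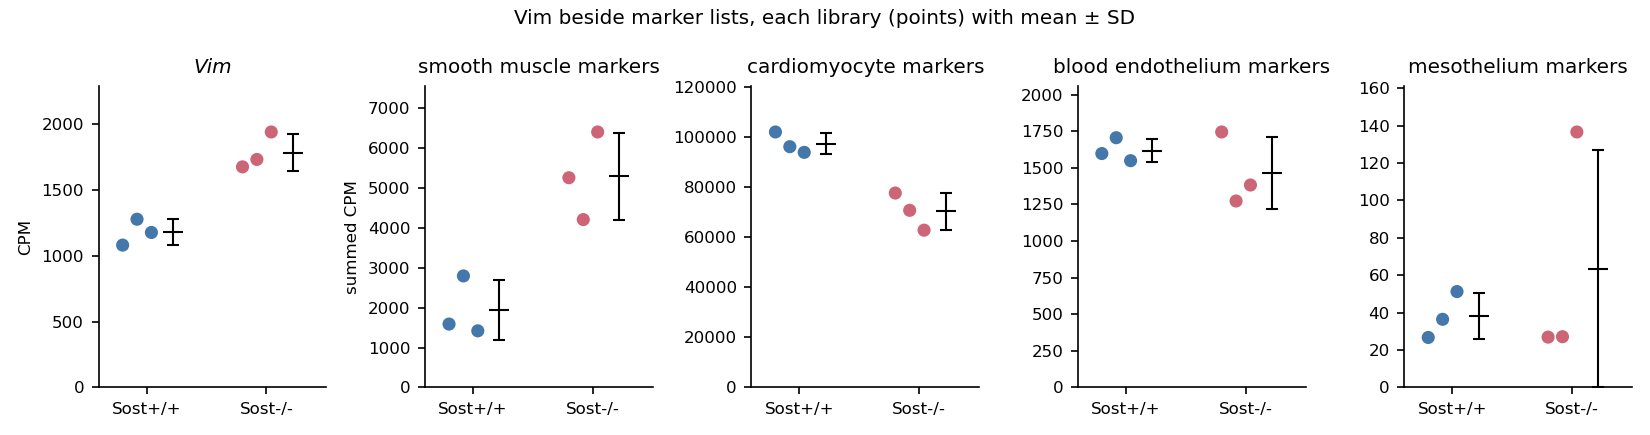
Vim in CPM and the summed CPM of marker lists (vertical axes) in each library, with mean ± SD in black. Smooth muscle markers are higher in every Sost-/- library (4210 to 6407 against 1419 to 2796 CPM), cardiomyocyte markers are lower in every one, blood endothelium markers overlap, and mesothelium markers reach 137 CPM in Sost-/- replicate 3.

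Levels of different genes were compared as RPKM, here CPM divided by the kilobases of merged exons. In the Sost+/+ libraries the order was Gsn (1227 ± 120.5 RPKM, SD, n = 3), Vim (248.5 ± 20.7), Dpt (225 ± 22.1), Ly6a (215.5 ± 20.6), Clec3b (114 ± 20.3), Dpep1 (49.4 ± 6.66), Pi16 (47.4 ± 3.57), Cd34 (40.2 ± 0.396), Tcf21 (10.4 ± 1.34) and Pdgfra (9.20 ± 0.141). Vim, Dpt and Ly6a overlapped between libraries in that group, as did Dpep1 with Pi16 and Tcf21 with Pdgfra. In the Sost-/- libraries Vim (376 ± 29.4 RPKM) lay above Dpt (262 ± 71.7 RPKM) and Ly6a (173 ± 12.1 RPKM) in every library. The defining receptor Pdgfra and the lineage factor Tcf21 were thus the least abundant of the set in both groups, and Gsn the most abundant. Merged exons cover every annotated isoform, 10024 bases for Pdgfra, so levels of genes with long rare isoforms are understated.

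Within a library, the ratio of 2 genes does not depend on scaling. Counts per Pdgfra count separated the groups for 5 of the other 9 genes, a comparison made after the values were seen. Of all other genes tested 54.2% separated in this way (50.9% lower and 3.33% higher), so the count is near the background. Pdgfra is itself higher in every Sost-/- library and varies little, and a gene at an even level, such as Cd34, separates by that alone. Ly6a stood at 2.79, 2.55 and 3.115 counts per Pdgfra count in the Sost+/+ and 1.84, 1.90 and 1.72 in the Sost-/- libraries, which is 0.6465 times the Sost+/+ mean. Pi16 stood at 3.34, 3.45 and 3.02 against 2.41, 2.75 and 2.39. Cd34 stood at 3.21, 3.11 and 3.22 against 2.65, 2.47 and 2.55. These genes of the adventitial subset were all lower per Pdgfra count in every Sost-/- library, while the other 2 of that kind, Clec3b (1.23 ± 0.220 against 1.16 ± 0.0866, SD, n = 3) and Dpep1 (1.33 ± 0.163 against 1.24 ± 0.164), overlapped. Gsn was lower too, at 39.1 to 45.95 against 34.9 to 37.3, and Vim was higher, at 11.9 to 13.6 against 14.7 to 17.01. Tcf21 kept a like ratio, 0.265 ± 0.0327 against 0.274 ± 0.0381, and overlapped. A ratio shows that 2 genes changed unequally and not which of them did.

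**Figure D4:**
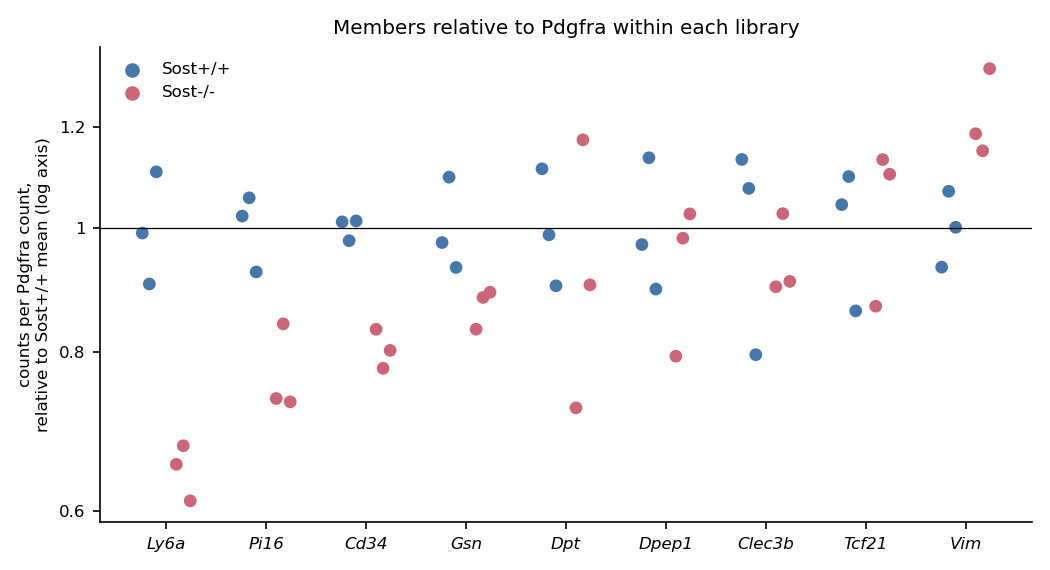
Counts of each gene per Pdgfra count in the same library, divided by the Sost+/+ mean (vertical log axis), for Sost+/+ (blue) and Sost-/- (red) libraries. All Sost-/- points of Ly6a, Pi16, Cd34 and Gsn lie below the Sost+/+ points, as for 50.9% of all genes, those of Vim lie above, and Dpt, Dpep1, Clec3b and Tcf21 overlap.

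The 10 genes did not all vary together between libraries, although most did. Over the 6 libraries, log2 CPM of Pdgfra, Tcf21, Dpt, Gsn, Vim, Dpep1 and Clec3b correlated positively in every pair. Pearson r ran from 0.338 (Dpt with Vim) to 0.96 (Pdgfra with Vim). Cd34 and Ly6a correlated negatively with each of these genes, and Pi16 was negative with Pdgfra and Vim only among them. These correlations include the group difference. Within the Sost+/+ group, replicate 2 was highest for 6 of the 10 genes and replicate 3 lowest for 6, although replicate 3 was highest for Ly6a and Cd34. Within the Sost-/- group, replicate 2 was highest for 7 and replicate 1 lowest for 8, the latter with Pdgfra, Tcf21, Dpt, Pi16, Gsn, Vim, Dpep1 and Clec3b. The CV ran from 0.984% to 17.8% in the Sost+/+ and from 0.448% to 27.4% in the Sost-/- group, smallest for Cd34 in both and largest for Clec3b and Dpt. The CV that counting error alone would give was at most 3.19%, for Tcf21, the member with the fewest counts. For all of the 10 but Pdgfra and Cd34, the CV between libraries was well above the counting error of the same gene in both groups.

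Beyond the 10, the lists of pan-fibroblast, adventitial, cardiac resident and activated fibroblast genes held 89 tested genes, of which edgeR called 8 (8.99%, beside 2.55% of all genes) and DESeq2 26 (29.2%, beside 7.64%). At an unadjusted p under 0.05 edgeR gave 34 (38.2%, beside 20.2%), and 35 did not overlap between the groups (39.3%, beside 25.4%). The lists were chosen with earlier results of these data known, so these shares describe the lists and do not test them. Of 23 further pan-fibroblast genes, 1 rose and 0 fell by edgeR, with a median log2 fold change of 0.22, and 20 of the 23 were positive. The groups did not overlap for 8, all higher, and 7 were higher at an unadjusted p under 0.05. The member that rose was Ddr2, the gene of a collagen-binding receptor kinase, from 80.3, 79.6 and 79.3 to 106, 107 and 109 CPM (log2 fold change 0.43, SE 0.08, edgeR adjusted p = 0.0266). Like Pdgfra, it varied little within each group. Of 26 further adventitial and progenitor genes, 2 rose and 0 fell, with a median of 0.06; 8 were higher and 1 lower at an unadjusted p under 0.05. These were Gli1, the Hedgehog effector gene that marks adventitial mesenchymal progenitors (from 10.8 ± 2.47 to 20.4 ± 2.16 CPM, SD, n = 3; log2 fold change 0.92, SE 0.16, edgeR adjusted p = 0.0274), and Scara5, a ferritin receptor gene (from 66.1 ± 8.35 to 94.99 ± 6.15 CPM; log2 fold change 0.52, SE 0.11, edgeR adjusted p = 0.0444).

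Of 20 cardiac resident fibroblast genes, 2 rose and 2 fell by edgeR, with a median log2 fold change of 0.20. DESeq2 called 6 higher and 2 lower, 8 were higher and 2 lower at an unadjusted p under 0.05, and 10 were higher and 2 lower without overlap. Gpc3, a glypican gene (log2 fold change 1.204, SE 0.25), and Mgp, the gene of matrix Gla protein (0.63, SE 0.14), rose. Mgp lost the call by limma-voom (adjusted p = 0.0503), with RLE scaling in edgeR (0.0507) and by limma on the deposited values (0.0612). Gpc3 lost it under a robust edgeR fit (0.085). With a library left out, edgeR kept Mgp only without Sost-/- replicate 1 (0.0247) and Gpc3 only without Sost+/+ replicate 2 (0.0188). The chemokine gene Cxcl14 (-0.77, SE 0.09, edgeR adjusted p = 0.0119) and the ectonucleotidase gene Nt5e (-0.65, SE 0.13, edgeR adjusted p = 0.041) fell. Nt5e lost the call in edgeR with library totals (adjusted p = 0.0648). With a library left out, edgeR kept it only without Sost+/+ replicate 2 (0.0436) or Sost-/- replicate 2 (0.0385). Of 20 genes of activated fibroblasts and myofibroblasts, 0 rose and 1 fell, with a median of -0.02; 4 were higher and 4 lower at an unadjusted p under 0.05, and DESeq2 called 4 higher and 3 lower. The member that fell was Meox1, a homeobox factor gene of fibroblast activation, from 92.9 ± 1.43 to 57.8 ± 6.74 CPM (SD, n = 3; log2 fold change -0.68, SE 0.10, edgeR adjusted p = 0.0151). Of 10 PDGF ligands, receptors and partners, 0 passed by edgeR (3 at an unadjusted p under 0.05), 2 by DESeq2 and 0 by limma-voom, with a median of 0.19. The mural receptor gene Pdgfrb was at 0.46 (SE 0.11, edgeR adjusted p = 0.0607).

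Without Sost+/+ replicate 1 or without Sost-/- replicate 3, edgeR called 0 members in each of the 4 fibroblast lists, and 0 and 10 of all genes (2262 and 1714 at an unadjusted p under 0.05). The pan-fibroblast count was 2 without Sost-/- replicate 1 and 0 with any other library left out (3 with library totals or with no filter). The adventitial calls were also 0 without Sost+/+ replicate 3 or Sost-/- replicate 2. Scara5 lost its edgeR call whichever library was left out (adjusted p = 0.0522 to 0.196). Gli1 kept its call only without Sost+/+ replicate 2 (0.00859) or Sost-/- replicate 1 (0.0394). The cardiac resident count was 1 without Sost+/+ replicate 3 and 2 without Sost-/- replicate 2, and the activated fibroblast count 3 without Sost-/- replicate 2, 4 with library totals and 5 with no filter. DESeq2 called more members of each list: 5 of the pan-fibroblast, 6 of the adventitial, 8 of the cardiac resident and 7 of the activated fibroblast genes. In the same libraries the smooth muscle markers had a median of 1.59, and the cardiomyocyte markers one of -0.46. Of the 15 cardiomyocyte markers edgeR called 1 lower, Csrp3, while DESeq2 called 11 lower, 11 were lower at an unadjusted p under 0.05 and 11 were lower without overlap. Their part in the fibroblast lists was not tested. Of the remaining marker lists, Schwann cell markers had 1 of 10 past the threshold by edgeR, Prx, with a median of 0.56. All 10 had a positive log2 fold change, and 6 were higher at an unadjusted edgeR p under 0.05. DESeq2 called 3 Schwann cell markers and limma-voom 0. Macrophage (median 0.19), adipocyte (0.96), mesothelium (0.86) and lymphocyte (-0.55) markers had 0 by edgeR and limma-voom. At an unadjusted p under 0.05 edgeR gave 4, 6, 1 and 3 of them, and DESeq2 called 3, 0, 0 and 0.

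**Figure D5:**
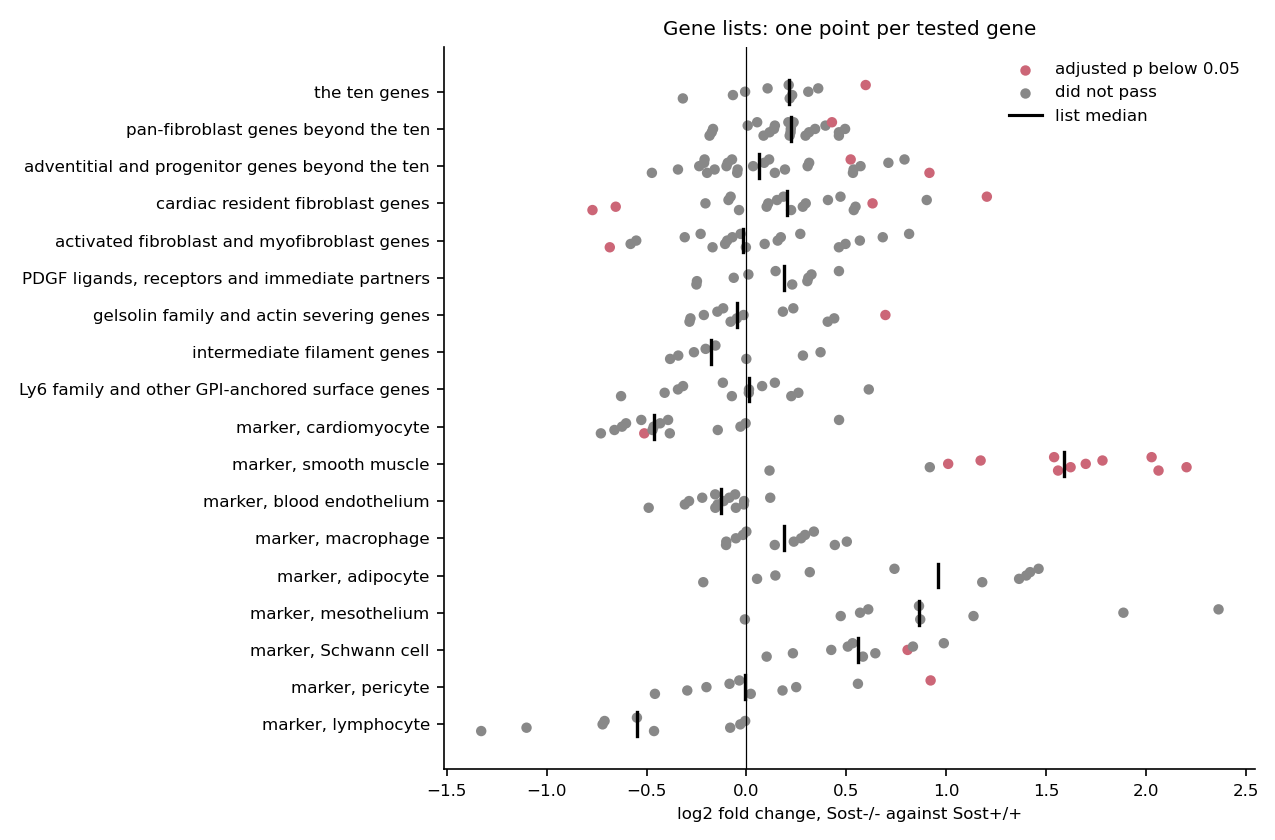
Log2 fold change in Sost-/- against Sost+/+ libraries (horizontal axis) of every tested gene of each list (rows), with genes that passed in red and list medians as black bars. The fibroblast lists have medians of -0.02 to 0.22, beside 0.0066 over all genes tested, and the smooth muscle markers lie apart at a median of 1.59.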

How the data were processed

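RNA of 6 aortic roots was sequenced from libraries of a directional kit, per the labels' protocols. The authors deposited whole-number read counts per gene symbol, and normalized signal, which equals those counts after division by a size factor for each library. The build mm10 and the tools DESeq2, HTSeq and DRAGEN come from the submitters' processing notes. Versions, annotation release and strand setting: not given in the sources used here. Antisense genes that overlap, annotated for Pdgfra, Tcf21, Dpt, Pi16 and Cd34, may therefore share reads with them. Genes on the same strand overlap Pdgfra (Mir7025), Gsn (Gm43128) and Dpep1 (Gm20388) and may share reads whatever the strand setting. Samples were grouped by the genotype label.

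Genes were filtered with filterByExpr (minimum count 10, minimum total 15), normalized by TMM and compared in edgeR 4.0.16 under R 4.3.3 (quasi-likelihood test, Benjamini-Hochberg adjustment, threshold 0.05). The SE is the absolute log2 fold change divided by the square root of F. RPKM were computed here from GENCODE M21 merged exons. Alternatives used DESeq2 1.42.0, limma 3.58.1 (voom, and deposited normalized signal with a pseudocount of 1), other scalings, no filter, a robust fit and each library left out; DESeq2 with each library left out was added after seeing the data. No 2 replicates were alike within sampling noise (chi-square per degree of freedom 34.1 to 64.5). Tested on simulated data made after this comparison (15002 genes), edgeR recovered 40.3%, 82.1% and 93.8% of changes of 0.5, 1 and 2 on the log2 scale, and 11 of 154 calls were false.

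The 10 genes and the 17 gene lists were chosen with earlier results of these data known. Named genes are the 10, up to 4 members of smallest p that passed in each list or else the member of smallest p, and the 3 genes most like Pdgfra and Pi16, of which 1 is not reported here; of these the text gives mainly those of fibroblast and related lists. For 3 list genes, older symbols were matched through RefSeq synonyms.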

Additional observations from a re-analysis of the deposited data

How the results depend on the processing

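Of 140 values that 14 other ways of processing gave for the 10 genes, 128 kept direction and side of the threshold. The 6 lost calls were all of Vim, the 3 gained were of Pdgfra (DESeq2, library totals) and Ly6a (DESeq2), and 3 changed sign. With a library left out, Dpt ran from -0.0114 (without Sost-/- replicate 2; -0.0228 by DESeq2) to 0.387 (without Sost-/- replicate 1). With library totals in place of TMM, Pi16 was at 0.0567 and Cd34 at 0.116, and Cbx8 at 0.0634 and Mtch1 at 0.0685; this scaling moved the median of all genes to 0.13, and relative to it Pi16 was at -0.07 and Cd34 at -0.01. Of the 10 genes, 3 were called by DESeq2, 2 with library totals and 0 by limma on the deposited normalized values, 0 to 1 with a library left out in edgeR and 1 to 3 in DESeq2. Over all genes, edgeR called 385 (329 higher, 56 lower), DESeq2 1159 (753 higher, 406 lower) and library totals 755 (728 higher, 27 lower). With a library left out the number ran from 0 (without Sost+/+ replicate 1) through 10 (without Sost-/- replicate 3), 118 (without Sost+/+ replicate 3) and 218 (without Sost-/- replicate 2) to 349 in edgeR, and in DESeq2 was 626, 961 and 1339 without Sost+/+ replicates 1, 2 and 3, and 1209, 838 and 368 without Sost-/- replicates 1, 2 and 3. The cause of these shifts was not tested. Among the other 29 named genes, 310 of 406 values kept direction and side, 79 lost a call, 15 gained one and 2 changed sign. No paired analysis was possible because the labels give no replicate numbers that the groups share. With at least 37023586 counts per library, counting error was small beside the spread between roots for every member but Cd34 and Pdgfra.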

Other observations

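The genes whose log2 CPM followed Pdgfra most closely over the 6 libraries, among 11280 genes with a mean of at least 5 CPM, were Bicc1, an RNA-binding protein gene (Pearson r = 0.9975, Spearman rho = 1), 2410066E13Rik (r = 0.9967, rho = 1) and Mta2, a chromatin remodelling subunit gene (r = 0.9945, rho = 0.886). 2410066E13Rik passed the test (log2 fold change 0.66, SE 0.12, edgeR adjusted p = 0.0265), and Bicc1 (0.33, SE 0.08, edgeR adjusted p = 0.0688) and Mta2 (0.08, SE 0.07, edgeR adjusted p = 0.593) did not. Those closest to Pi16 were the Polycomb gene Cbx8 (r = 0.9907, rho = 0.886) and the mitochondrial carrier homologue gene Mtch1 (r = 0.9858, rho = 1). No fibroblast gene of the lists stood among these 5, and the correlations are descriptions over 6 libraries that share their group difference, picked as the highest of many.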
